A study of Homo sapiens with 16 samples.

Results

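The SNARE proteins described here are VAMP8 and the SNAREs it is known to pair with or resembles. The genes are VAMP8, VAMP2, VAMP3, VAMP4, VAMP5, SNAP23, STX4, STX7, STX8 and VTI1B, and their rows were taken from the array table by gene symbol, with every probe kept apart. Of these 10 symbols, 9 had a row among the 18190 symbols of the table. The 9 symbols had 11 of the 20589 rows, because VAMP4 and SNAP23 were each measured by 2 probes. No row carried the symbol STX4, so the plasma membrane syntaxin of this set was not analysed here.

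SNAREs are short membrane-anchored proteins that drive the fusion of a vesicle with its target membrane. An R-SNARE, usually a VAMP on the vesicle, zips together with Qa, Qb and Qc helices on the target into a bundle of 4 helices that pulls the membranes together. At the plasma membrane STX4 gives the Qa helix and SNAP23 gives both the Qb and the Qc helix, and this pair receives GLUT4 vesicles that carry VAMP2 or VAMP3. At late endosomes STX7 (Qa), VTI1B (Qb) and STX8 (Qc) pair with VAMP8, which also serves in regulated secretion and in fusion of autophagosomes with lysosomes.

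The cells were MCF10A, a nontransformed human breast epithelial line, grown with insulin, epidermal growth factor and hydrocortisone. They received 1 µM of CP724,714, a small-molecule inhibitor of the HER2 receptor kinase, and RNA of parallel plates was collected every 3 hours from 0 (untreated) to 45 hours and hybridised to 1 Illumina human Ref8v2 array per time point, 16 in all. No time point had a second array, there was no series without inhibitor here, and the medium was renewed when the inhibitor was added. Effects of the inhibitor, the fresh medium and time in culture therefore cannot be told apart. No chip or batch is named for the arrays, so a difference between batches cannot be told apart from these either. All levels below are log2 intensities after background correction and quantile normalization unless they are called deposited intensities, and the offset used in the correction compresses the changes of dim probes. To obtain a measure of spread, the arrays were read as 4 windows of 4 consecutive time points (0 to 9, 12 to 21, 24 to 33 and 36 to 45 hours). The windows are not replicates, so their SD (n = 4 time points) also holds change within a window. A change was called at an adjusted p under 0.05 from limma, adjusted over all 11957 probes that were above background on at least 3 arrays.

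Across the arrays the median deposited intensity was between 210 and 254, and 50.1% to 52.9% of the rows were above background. The negative control level inferred from the table was 193 to 199 at 0 to 9 hours and 166 to 185 at 36 to 45 hours, and results were also computed without background correction. The late change of VAMP8 given below was then 0.52 in place of 0.53, whereas that of SNAP23 ILMN_679 was 0.34 in place of 0.64. The early change of VAMP5 was -0.77 in place of -1.27 and that of SNAP23 ILMN_29211 -0.54 in place of -1.13, and these 4 calls were kept. The label of a breast epithelial line was checked against markers. Of 8 basal and pan-epithelial genes, 6 were above background on all 16 arrays (KRT5, KRT17, CDH3, EGFR, CDH1 and EPCAM), whereas TP63 was above background on 10 and KRT14 on 1. Their summed level lay between 45922 and 68238 over the series, and of their 9 tested probes 5 were higher and 1 lower (EGFR ILMN_15848, -0.64, adjusted p = 0.0075, limma) at 36 to 45 than at 24 to 33 hours, where 19.3% of all tested probes were higher and 18.7% lower. ESR1, PGR, COL1A1, COL3A1, PDGFRB, CDH5, ADIPOQ, PLIN1 and LEP were above background on 0 arrays, CD34 was on at most 1 and DCN, PTPRC and FABP4 on at most 5 by their best probe. Of the luminal genes FOXA1 was above background on 16 arrays with a late change of -0.22 (adjusted p = 0.44, limma). GATA3 was above background on 15 and rose by 0.66 at the late step (adjusted p = 0.049, limma) and by 0.86 between the ends of the series (adjusted p = 0.015, limma), in the same windows as VAMP8 and VAMP5, and its part in their changes was not tested. Of the endothelial genes PECAM1 was above background on 15 arrays, and its mean went from 6.32 in the first window to 7.20 in the second (adjusted p = 3e-04, limma). In RNA of a whole culture, fewer cells of one kind and less RNA per cell cannot be told apart.

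After quantile normalization a pair of shapes stood out among the SNAREs. VAMP8, VAMP5 and one SNAP23 probe dipped or held level in the middle of the series and rose together after 33 hours, VAMP5 by 4.30-fold, SNAP23 by 1.55-fold and VAMP8 by 1.44-fold between the last windows. The late endosomal partners STX8 and VTI1B changed by smaller steps, and no step between consecutive windows was called. They ended 0.33 and 0.29 above their first window. These differences were not called under a contrast that omits the step from 21 to 24 hours. Of the 11 probes, 9 (7 symbols) had a time-dependent course in limma's F-test of a spline of time, against 54.7% of all tested probes. VAMP2 (adjusted p = 0.213, limma) and VAMP3 (adjusted p = 0.411, limma) did not pass.

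**Figure D1:**
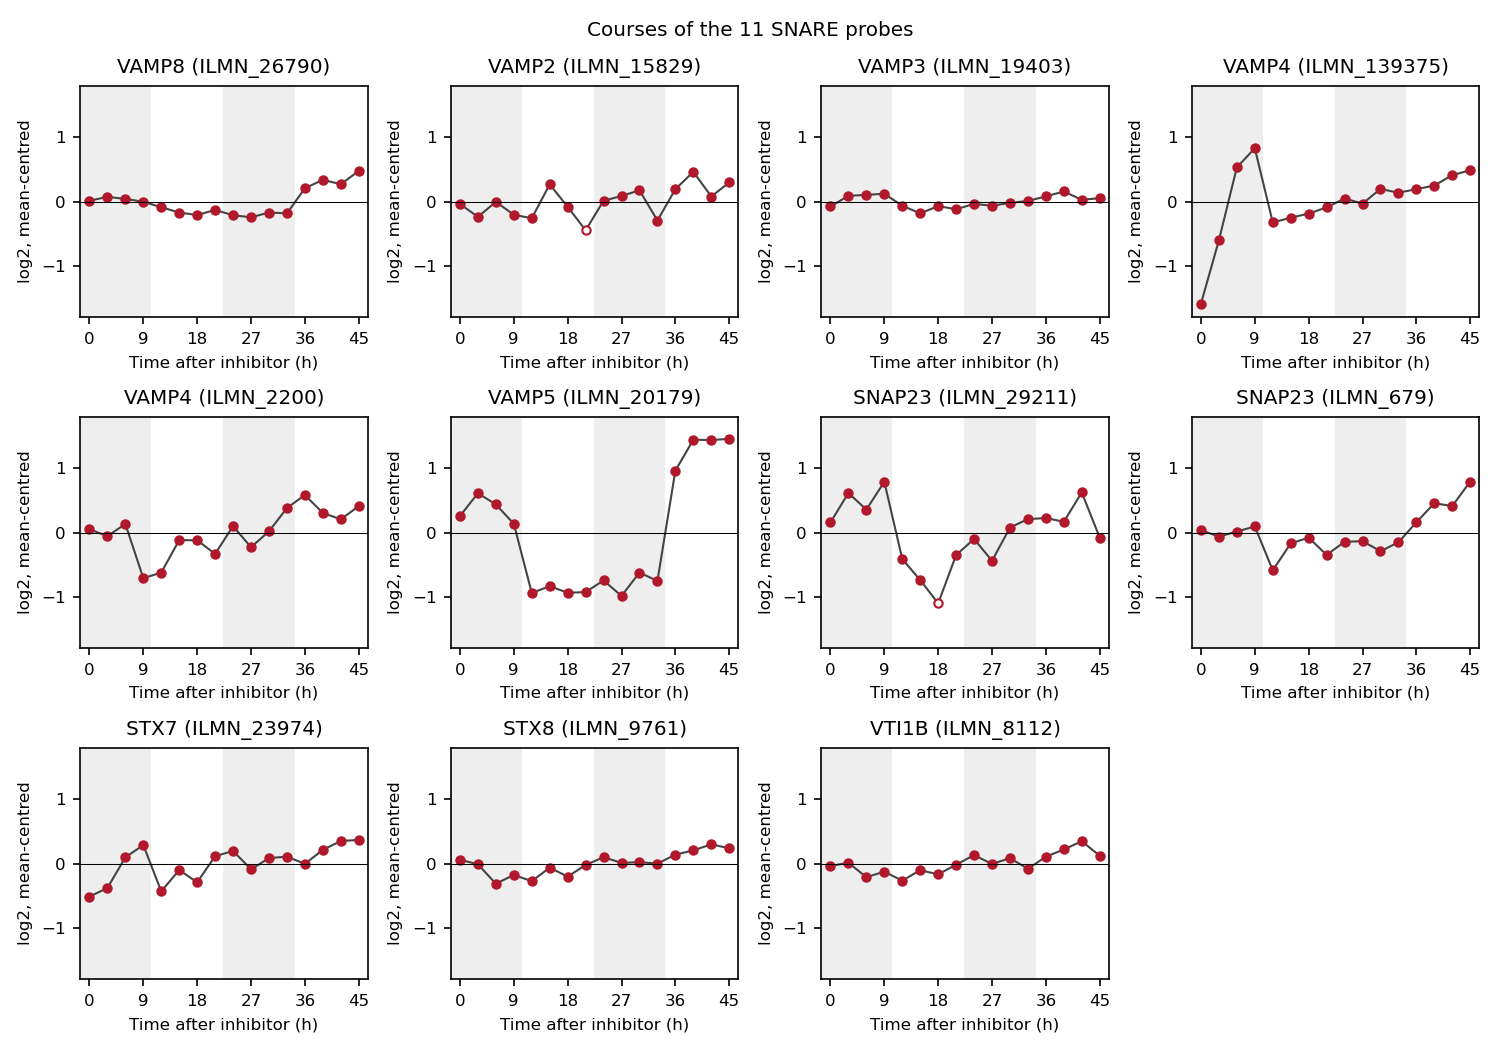
Log2 intensity of each of the 11 SNARE probes, centred on its own mean, against time after addition of the inhibitor in hours (1 array per point; shading marks every other window of 4 time points; an open symbol is an array where the probe was not above background). VAMP5 dropped after 9 hours and rose after 33 hours, VAMP8 moved the same way over a range of 1.65-fold, and VAMP3 stayed within 1.27-fold.

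VAMP8 and VAMP5 are considered first, because their courses were alike and their genes lie side by side on chromosome 2. In the RefSeq gene order 0 protein-coding genes lie between them, and both are read from the + strand. Their promoters are printed because the probes moved together. Each is a stretch of 300 bases, 250 before and 50 after the RefSeq start of the gene in GRCh38.p14, at chr2:85577336-85577635 for VAMP8 and chr2:85584181-85584480 for VAMP5. Capitals mark matches, on either strand, to a GC box (GGGCGG, read as CCGCCC on the other strand) or a STAT-type motif (TTCNNNGAA).
VAMP8: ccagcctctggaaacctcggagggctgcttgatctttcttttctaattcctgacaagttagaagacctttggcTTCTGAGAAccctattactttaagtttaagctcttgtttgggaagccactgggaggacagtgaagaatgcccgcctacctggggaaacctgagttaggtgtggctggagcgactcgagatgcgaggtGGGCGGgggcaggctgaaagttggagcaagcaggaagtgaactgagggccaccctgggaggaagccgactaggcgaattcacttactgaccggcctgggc
VAMP5: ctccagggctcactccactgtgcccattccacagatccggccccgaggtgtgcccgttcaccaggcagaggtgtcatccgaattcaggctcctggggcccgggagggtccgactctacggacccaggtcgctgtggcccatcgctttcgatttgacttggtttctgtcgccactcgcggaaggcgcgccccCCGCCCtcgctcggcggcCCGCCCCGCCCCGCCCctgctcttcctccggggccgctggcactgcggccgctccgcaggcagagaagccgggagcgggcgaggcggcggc
The VAMP5 window is richer in G and C (71.67%, with 32 CpG) than that of VAMP8 (54.33%, with 9 CpG), and the medians over 34796 distinct RefSeq promoters of this length were 58.67% and 14 CpG. VAMP5 has 4 GC boxes, of which the last 3 each share 1 base with the next, and VAMP8 has 1, while 44.9% of all promoters hold at least 1. VAMP8 has 1 STAT-type match and VAMP5 has 0, against 7.67% of all promoters. Neither window matched CACGTG (E-box, 7.2% of all), GTAAACA (forkhead, 3.42%), TGANTCA (AP-1, 7.73%) or CCGGAAG (ETS, 10.2%). A match is a description of these letters and not a bound site.

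VAMP8, also called endobrevin, was read by 1 bright probe (ILMN_26790), detected on all arrays. The log2 values were 14.07, 14.13, 14.10 and 14.06 at 0, 3, 6 and 9 hours and 13.97, 13.89, 13.85 and 13.93 at 12, 15, 18 and 21 hours. It was 13.85, 13.82, 13.89 and 13.88 at 24, 27, 30 and 33 hours and 14.27, 14.40, 14.33 and 14.54 at 36, 39, 42 and 45 hours. The last 4 arrays were above all the others, and the arrays of 12 to 21 hours were all below those of 0 to 9 hours. The deposited intensities showed the late step as well, with 15542 to 16992 at 24 to 33 hours and 20436 to 22376 at 36 to 45 hours. They showed less of a decline before it, since the values at 24 to 33 hours overlapped those at 0 to 9 hours (16575 to 17078).

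The late rise of VAMP8 was 0.53 on the log2 scale (36 to 45 against 24 to 33 hours, SE 0.05, adjusted p = 9.2e-07, limma), and its largest step between consecutive arrays was that from 33 to 36 hours (0.39). The last window was also above the first by 0.29 (SE 0.05, adjusted p = 0.00038, limma), which was 0.57 under median scaling. The early decline was smaller, at -0.18 (12 to 21 against 0 to 9 hours, SE 0.05, adjusted p = 0.014, limma), and rested on the scaling of the arrays. Under median scaling, which moved the median of all probes by 0.11 in this comparison, the VAMP8 difference was 0.01 (adjusted p = 0.95, limma), that is 0.10 below the median of all probes. In order of level the windows ran from 36 to 45 hours (14.38 ± 0.12) to 0 to 9 hours (14.09 ± 0.03), 12 to 21 hours (13.91 ± 0.05) and 24 to 33 hours (13.86 ± 0.03), and no difference between the lowest 2 was detected (-0.05, SE 0.05, adjusted p = 1, limma).

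VAMP5, or myobrevin, is a VAMP known from muscle and found mainly at the cell surface, and it changed most between windows of all the SNARE probes here. Its probe (ILMN_20179) read 8.54, 8.90, 8.72 and 8.42 on the first 4 arrays. It then stood at 7.34, 7.45, 7.35 and 7.36 at 12 to 21 hours and at 7.54, 7.30, 7.66 and 7.53 at 24 to 33 hours. From 36 hours it read 9.25, 9.73, 9.73 and 9.75. The series thus had separate levels, with no overlap between the first window, the 8 arrays of 12 to 33 hours, and the last window. As deposited, its intensity was 515 to 615, then 328 to 374 over these 8 arrays, and finally 839 to 998.

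The drop of VAMP5 from the first to the second window was 2.41-fold (log2 change -1.27, SE 0.13, adjusted p = 4.3e-06, limma), with a step of -1.08 between 9 and 12 hours. The late rise was 4.30-fold (log2 change 2.11, SE 0.13, adjusted p = 1.4e-08, limma), and the step from the 33 to the 36 hour array was 1.72. The last window ended 1.95-fold above the first (log2 change 0.97, SE 0.13, adjusted p = 3.7e-05, limma), and these calls did not depend on the scaling. Its highest level, at 45 hours, was 5.45-fold above its lowest, at 27 hours. These folds rest on a dim middle of the series, and without background correction the late log2 change was 1.44 in place of 2.11.

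**Figure D2:**
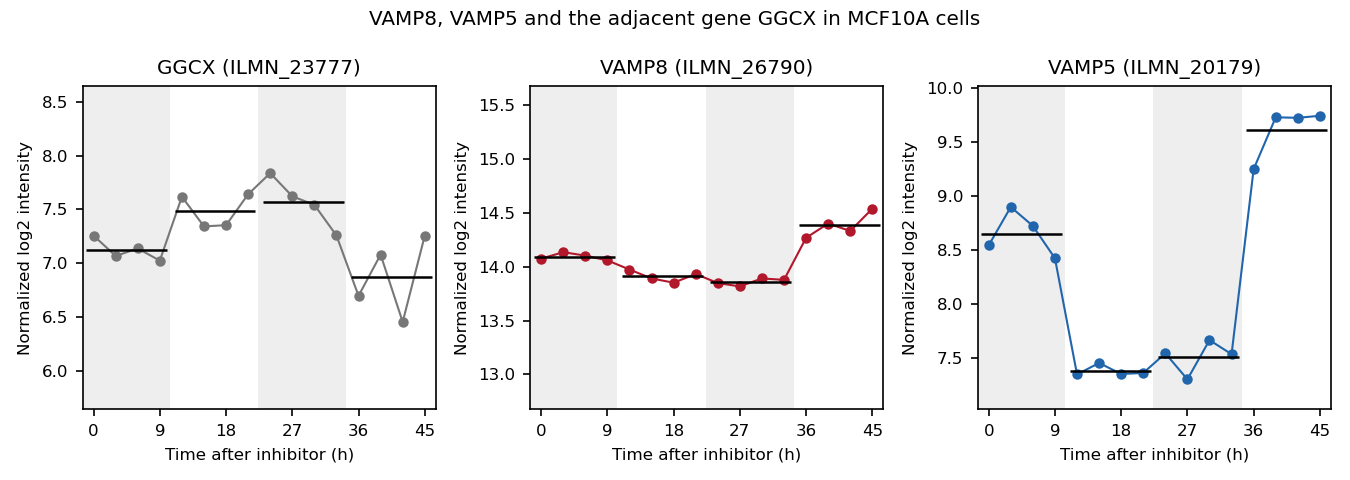
Normalized log2 intensity of GGCX, VAMP8 and VAMP5, drawn in their order on chromosome 2, against time after addition of the inhibitor (1 array per point, black bars are window means, and each vertical axis spans the same number of log2 units). VAMP8 and VAMP5 were highest at 36 to 45 hours, where the GGCX mean was lowest.

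Over the 16 arrays the courses of VAMP8 and VAMP5 correlated with r = 0.96 (Spearman rho 0.88), which is a description of arrays that share their normalization and their order in time. The r was 0.90 on log2 deposited intensities and 0.74 under median scaling. Under median scaling VAMP8 was about as like STX8 (0.74) and VTI1B (0.71), where quantile normalization gave 0.57 and 0.54. The genes next to VAMP8 and VAMP5 were looked up after these values were seen, and they had other courses over the whole series. GGCX, the vitamin K-dependent carboxylase on the other side of VAMP8, fell by 0.69 on the log2 scale from 24 to 33 hours to 36 to 45 hours (SE 0.16, adjusted p = 0.0029, limma) and had an r with VAMP8 of -0.66. MAT2A, which makes S-adenosylmethionine and lies beyond GGCX, had a late change of 0.28 (SE 0.13, adjusted p = 0.1, limma) and an r of 0.34. Its values at 36 to 45 hours (13.547 to 13.709) still lay wholly above those at 24 to 33 hours (13.235 to 13.435). The same held for 22.2% of all tested probes. The next genes beyond VAMP5, RNF181 and TMEM150A, were not analysed here.

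VAMP5 was 14th in likeness to VAMP8 among the 11956 other tested probes. The 5 with the highest r were SLC25A3, the mitochondrial phosphate carrier (0.98), COL17A1, a hemidesmosome collagen (0.98), DEFB1, an epithelial defensin (0.97), ACTA2, smooth muscle actin (0.97), and TMC4, a channel-like membrane protein (0.97). Their log2 changes from 24 to 33 hours to the last window were 0.44 for SLC25A3, 0.69 for COL17A1, 1.82 for DEFB1, 0.98 for ACTA2 and 1.45 for TMC4. These 5 were picked for their likeness to VAMP8 on these same arrays. A late rise follows from that choice, so no test is given for it. VAMP8 was therefore 1 of many probes with this shape. The other SNARE of the late rise, SNAP23 probe ILMN_679, was 375th in this order.

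The other vesicle SNAREs moved less or less clearly. VAMP3, or cellubrevin, serves recycling endosomes, and its probe (ILMN_19403) had the narrowest range of the set after quantile normalization. Its values lay between 10.62, at 15 hours, and 10.96, at 39 hours, a range of 1.27-fold. The window means were 10.86 ± 0.09, 10.69 ± 0.05, 10.77 ± 0.03 and 10.88 ± 0.06, and 36 to 45 against 0 to 9 hours gave 0.02 (SE 0.07, adjusted p = 0.85, limma). Under median scaling, which moved the median of all probes by 0.11 in this comparison, VAMP3 gave 0.25 (adjusted p = 0.036, limma), and its time course then passed (adjusted p = 0.028, limma).

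VAMP2, the classical synaptobrevin of neurons and GLUT4 vesicles, was near the background (ILMN_15829, not above it at 21 hours). Its values ran from 5.97 at 21 hours to 6.89 at 39 hours, and its highest value was at least 1.69-fold above its lowest. All 4 arrays of 36 to 45 hours (6.50 to 6.89) were above those of 0 to 9 hours (6.18 to 6.42), with a difference of 0.38 that did not pass the test (SE 0.15, adjusted p = 0.061, limma), though it did under median scaling (0.39) and without the 15 or the 21 hour array. The deposited intensities of these windows overlapped (241 to 276 late, 243 to 265 early), and the difference was 0.16 without background correction.

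VAMP4, an R-SNARE of the trans-Golgi network, was read by 2 probes that disagreed in the first hours. Probe ILMN_139375 read 6.23, 7.22, 8.35 and 8.65 at 0, 3, 6 and 9 hours, a 5.36-fold difference between single arrays and the widest of the first window in the set. It read 7.49 at 12 hours, and the arrays after that ran from 7.57, at 15 hours, to 8.31, at 45 hours. Probe ILMN_2200 read 7.24, 7.13, 7.32 and 6.48 over the first 4 arrays, so that at 9 hours it was 0.76 below its 0 hour value where the other was 2.42 above. Over the 16 arrays the r of the 2 probes was 0.09. The table gives no reason for the difference, and the row of ILMN_139375 holds a combined value of more than 1 probe, by the form of its detection p.

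In the tests, ILMN_2200 rose between the first and last windows from 7.04 ± 0.38 to 7.57 ± 0.16 (0.52, SE 0.18, adjusted p = 0.036, limma). For ILMN_139375 the same comparison gave 0.54, which did not pass because its first window spread so widely (SE 0.34, adjusted p = 0.24, limma). Leaving out the 9 hour array moved this value to 0.89 and past the threshold, and leaving out the 0 hour array moved it to 0.08. The call of ILMN_2200 was lost without the 9, 36, 39 or 45 hour array, with changes of 0.33, 0.45, 0.55 and 0.51, with the 8 compared arrays alone, and under a contrast that omits the step from 21 to 24 hours (0.16). The time course of ILMN_139375 was at the edge of the threshold (adjusted p = 0.0496, limma).

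SNAP23, which supplies 2 of the 4 helices of plasma membrane fusion, was also read by 2 probes. ILMN_679 read 7.51, 7.41, 7.49 and 7.57 on the first 4 arrays, and 6.88, 7.30, 7.39 and 7.12 at 12 to 21 hours. It read 7.33, 7.34, 7.18 and 7.32 at 24 to 33 hours and 7.63, 7.93, 7.88 and 8.27 at 36 to 45 hours. The last 4 arrays were above all 12 before them. The late rise was 0.64 (SE 0.14, adjusted p = 0.0014, limma), and the last window was 0.44 above the first (SE 0.14, adjusted p = 0.022, limma). That second difference was no longer called without the 45 hour array (0.32) or with the 8 compared arrays alone (adjusted p = 0.07, limma). It was also not called when the change from 12 to 21 to 24 to 33 hours was left out (0.32). Without background correction it was 0.24 and called.

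The other SNAP23 probe, ILMN_29211, read 7.42, 7.87, 7.62 and 8.05 on the first 4 arrays and 6.85, 6.52, 6.16 and 6.91 at 12 to 21 hours, with the 18 hour array not above background. It then read 7.16, 6.82, 7.34 and 7.47, and 7.48, 7.43, 7.88 and 7.18 on the last 4. This probe had its clear change early, with a drop of -1.13 from the first to the second window (SE 0.20, adjusted p = 0.00042, limma) and no overlap between them. For ILMN_679 the early difference was -0.32 and did not pass (SE 0.14, adjusted p = 0.092, limma), although these windows did not overlap either. At the late step the roles were turned, since ILMN_29211 gave 0.30 (SE 0.20, adjusted p = 0.26, limma). The 2 probes had an r of 0.37 over the 16 arrays, and the difference between them was not tested.

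STX7, STX8 and VTI1B form the late endosomal Q-SNARE set of VAMP8. STX8, the Qc helix, was measured by ILMN_9761 and read 11.22, 11.15, 10.85 and 10.99 on the first 4 arrays and 11.30, 11.37, 11.46 and 11.40 on the last 4. The values between them lay from 10.89, at 12 hours, to 11.26, at 24 hours. The last 4 arrays were thus above all the others after quantile normalization, by a small amount. As deposited they lay at 2558 to 2906 and overlapped those of 24 to 33 hours (2576 to 2783). The last window exceeded the first by 0.33 (SE 0.08, adjusted p = 0.0058, limma), whereas the step from 24 to 33 to 36 to 45 hours was 0.19 and did not pass (SE 0.08, adjusted p = 0.088, limma). Under median scaling the first of these was 0.55 and the second was 0.05 (adjusted p = 0.74 for the second, limma). The first was not called when the change from 12 to 21 to 24 to 33 hours was left out. It was then 0.16 (adjusted p = 0.42, limma). With a step between 21 and 24 hours as a block the time course was lost too (adjusted p = 0.18, limma).

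VTI1B, the Qb helix (ILMN_8112), followed STX8 closely. It read 9.65, 9.70, 9.48 and 9.56 on the first 4 arrays, 9.42 to 9.67 at 12 to 21 hours and 9.61 to 9.82 at 24 to 33 hours. On the last 4 it read 9.80, 9.91, 10.04 and 9.81, each above the first window. The difference between the last and first windows was 0.29 (SE 0.09, adjusted p = 0.021, limma). It was 0.50 under median scaling. The call was lost when the change from 12 to 21 to 24 to 33 hours was left out (0.12, adjusted p = 0.6, limma). It was also lost with the 8 compared arrays alone (adjusted p = 0.08, limma). Leaving out the 6 hour array (0.25) or the 42 hour array (0.24) lost it too. The r between STX8 and VTI1B was 0.94 over the 16 arrays, 0.92 on log2 deposited intensities and 0.96 under median scaling.

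STX7, the Qa helix (ILMN_23974), followed these 2 less closely. Its r was 0.54 with VTI1B and 0.44 with STX8, and 0.74 and 0.68 under median scaling. It read 7.49, 7.63, 8.11 and 8.30 on the first 4 arrays and 7.58 at 12 hours, and after that it lay between 7.72 and 8.38. Its 9 hour value was 1.75-fold its 0 hour value, and its highest level, at 45 hours, was 1.84-fold above the 0 hour array. No difference between windows passed, with 0.36 for the last against the first (SE 0.17, adjusted p = 0.11, limma), which was 0.50 and called without the 9 hour array. The probe most like STX7 among the SNAREs was the combined row of VAMP4, ILMN_139375 (r = 0.85), which also had higher values up to 9 hours and a lower one at 12 hours.

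**Figure D3:**
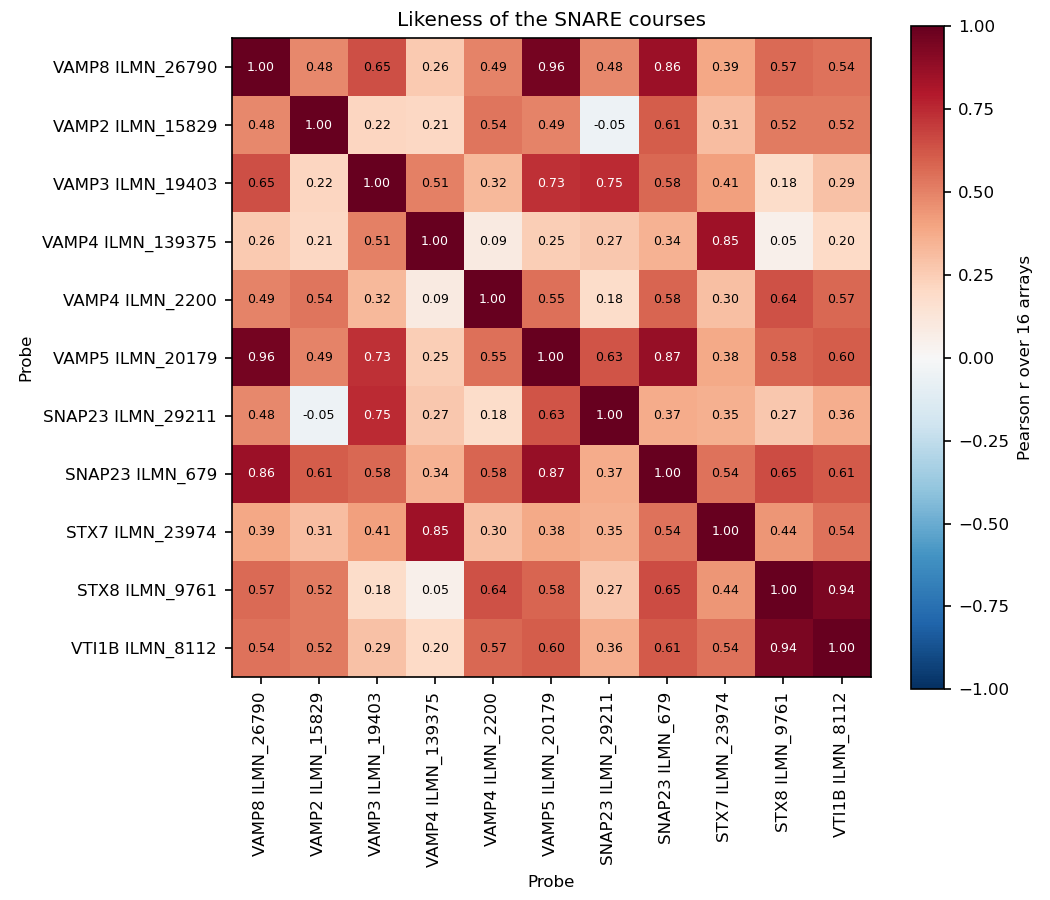
Pearson r between the log2 courses of the 11 SNARE probes, with 16 arrays behind each value and the same probe order on both axes. The highest values off the diagonal were those of VAMP8 with VAMP5 (0.96), STX8 with VTI1B (0.94), VAMP5 with SNAP23 ILMN_679 (0.87), VAMP8 with SNAP23 ILMN_679 (0.86) and VAMP4 ILMN_139375 with STX7 (0.85).

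On the deposited intensities and under median scaling, the r of those 5 pairs lay between 0.74 and 0.96. Other pairs did not. VAMP3 with SNAP23 ILMN_29211 had 0.75 after quantile normalization, 0.30 on deposited intensities and 0.11 under median scaling, and VAMP3 with VAMP5 had 0.73, 0.06 and 0.26. Some pairs were instead higher under median scaling. In the same order VAMP3 with STX7 had 0.41, 0.53 and 0.79, and VAMP8 with STX8 had 0.57, 0.46 and 0.74. All pairs share their arrays and normalization, and no test was made.

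Read window by window, the set moved as follows. From 0 to 9 to 12 to 21 hours 3 of the 11 probes were lower (VAMP8, VAMP5 and SNAP23 ILMN_29211) and 0 higher, where 14.4% of all tested probes were lower and 15.1% higher. At an unadjusted p under 0.05 in limma 5 of the 11 passed, against 39.5% of all tested probes. The median change of the members was -0.15 and that of all probes was -0.00, and 0 of the 11 members were above 0. Under median scaling 6 of the 11 were above 0, though 2 were above the median of all probes. The arrays of 12 to 21 hours were wholly below those of 0 to 9 hours for 4 of the 11 probes (VAMP8, VAMP5 and both of SNAP23), against 11.4% of all tested probes.

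From 12 to 21 to 24 to 33 hours 0 of the 11 were called by limma, and 0% of all probes were higher and 0.0251% lower. SNAP23 ILMN_29211 was the member with an unadjusted p under 0.05 in limma (change of 0.59, unadjusted p = 0.0081), where 585 of all tested probes had one. The median change of the members was 0.17.

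From 24 to 33 to 36 to 45 hours 3 of the 11 were higher (VAMP8, VAMP5 and SNAP23 ILMN_679) and 0 lower, against 19.3% and 18.7% of all tested probes. The number higher was near that background. All 11 members had a change above 0, with a median of 0.26 (49.7% of all probes were above 0, with a median of -0.00), and 4 had an unadjusted p under 0.05 in limma, against 45.4% of all probes. Under median scaling VAMP3 was at -0.01 and the other 10 stayed above 0. After quantile normalization the last window was wholly above the one before for 5 of the 11 (VAMP8, VAMP3, VAMP5, SNAP23 ILMN_679 and STX8), and for 22.2% of all probes.

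Between the ends of the series, 6 of the 11 were higher at 36 to 45 than at 0 to 9 hours (VAMP8, VAMP5, VAMP4 ILMN_2200, SNAP23 ILMN_679, STX8 and VTI1B) and 0 lower, where 16.2% and 15% of all tested probes were. At an unadjusted p under 0.05 in limma 8 passed, against 42% of all probes. The median change was 0.36 for the members and -0.02 for all probes. After quantile normalization the 2 windows did not overlap for 7 of the 11, the 6 just named and VAMP2, against 13.6% of all probes. These comparisons share windows and are not independent of each other.

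**Figure D4:**
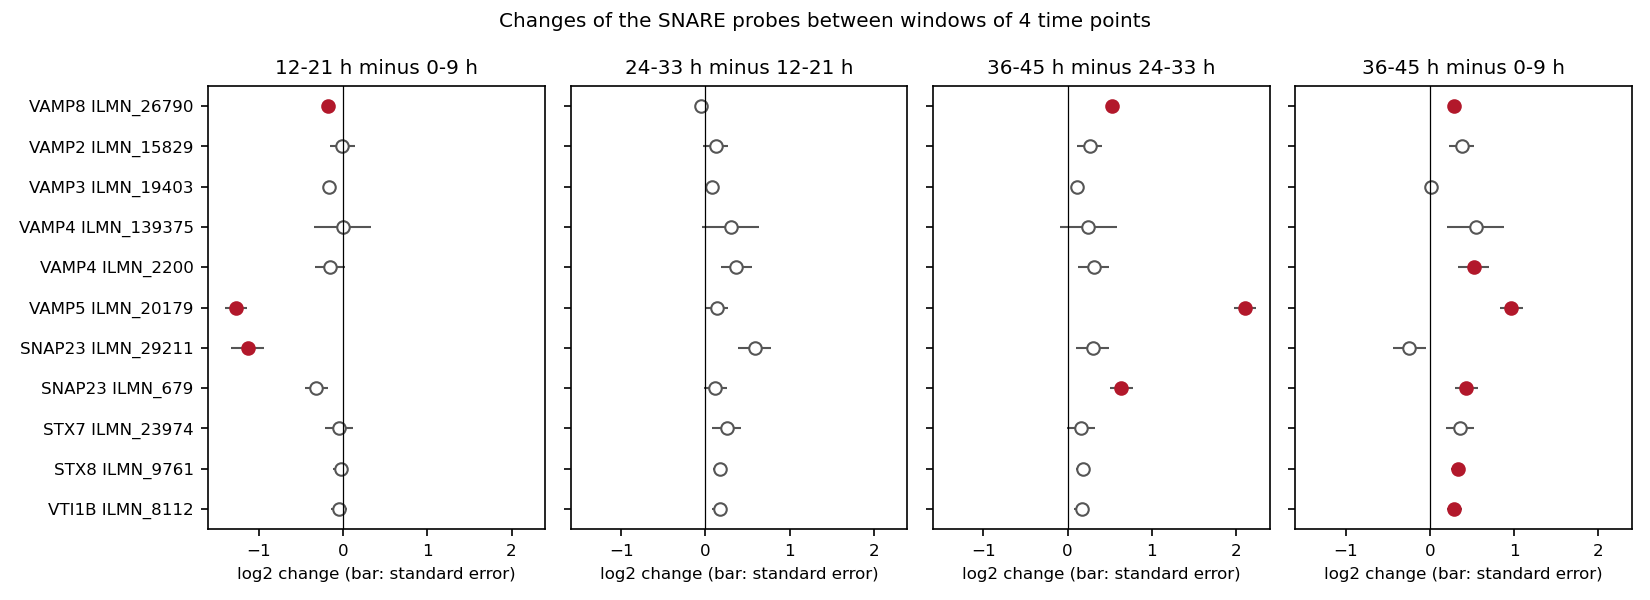
Log2 change of each SNARE probe between windows of 4 time points, 1 panel per comparison, with bars of 1 standard error (filled symbols had an adjusted p under 0.05 from limma). VAMP5 had the changes furthest from 0 at 12 to 21 hours (-1.27) and at 36 to 45 hours (2.11), and all 11 probes lay to the right of 0 in the late comparison.

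Set against the untreated array alone, with no test, 4 of the 11 departed by 1.7-fold or more, in either direction, at some later time, as did 43.7% of all tested probes. They were VAMP4 ILMN_139375 (5.36-fold), SNAP23 ILMN_29211 (2.39-fold), VAMP5 (2.37-fold) and STX7 (1.84-fold). VAMP4 ILMN_2200 (furthest at 9 hours, with a log2 difference of -0.76) and SNAP23 ILMN_679 (1.69-fold) lay just short of it, and VAMP8 reached 1.38-fold.

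The SNAREs outside the set, the proteins that handle them and those of GLUT4 traffic were read as 5 lists. Their 69 genes all had a row, and 68 probes of 62 genes were tested, and 30 of the 68 were time-dependent (54.7% of all tested probes). At the late step 16 were higher and 5 lower (19.3% and 18.7% of all). Between the ends of the series 13 were higher and 10 lower (16.2% and 15% of all), and from the first to the second window 5 were higher and 14 lower (15.1% and 14.4% of all).

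Of the other syntaxins, which give the Qa helix on several membranes and Qc helices on some, 4 of 12 probes were higher at 36 to 45 than at 24 to 33 hours and 0 lower (median 0.29). The highest changes were those of STX19, an epithelial syntaxin (0.71, SE 0.21, adjusted p = 0.012, limma), STX1A, the syntaxin of synaptic release (0.62, SE 0.15, adjusted p = 0.0027, limma), and STX5 of the Golgi (0.54, SE 0.14, adjusted p = 0.0058, limma). Of the other Qb, Qc and Qbc SNAREs 0 of 10 were higher and 2 lower (median -0.04). These were GOSR2, a Golgi SNARE (-0.87 on ILMN_4229, SE 0.12, adjusted p = 3e-05, limma), and BNIP1 of the endoplasmic reticulum (-0.64, SE 0.13, adjusted p = 0.00098, limma). The other tested probe of GOSR2, ILMN_4126, gave -0.32 (SE 0.20, adjusted p = 0.23, limma).

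Of the other R-SNAREs 1 of 10 probes was higher and 2 lower (median -0.06). STXBP5, or tomosyn, whose R-SNARE-like tail occupies syntaxins, rose by 0.40 (SE 0.12, adjusted p = 0.017, limma). SEC22C, a relative of the SEC22 SNARE of the endoplasmic reticulum, gave -0.70 on probe ILMN_28430 (SE 0.13, adjusted p = 0.00054, limma) and -0.04 on ILMN_15895 (SE 0.11, adjusted p = 0.83, limma). STXBP6, or amisyn, gave -0.53 (SE 0.18, adjusted p = 0.031, limma). Of the regulators and tethers 6 of 19 were higher and 0 lower (median 0.14). The highest of these were VPS39 (0.57, SE 0.11, adjusted p = 0.00064, limma) and VPS11 (0.49, SE 0.18, adjusted p = 0.036, limma), both subunits of the tether that works with the late endosomal SNAREs, and STXBP2, the Munc18 protein of epithelial secretion (0.52, SE 0.11, adjusted p = 0.0016, limma).

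In the list of GLUT4 traffic, the setting in which the study considered VAMP8, 5 of 17 probes were higher in the late comparison and 1 lower (median 0.08). SORT1, or sortilin, a sorting receptor of GLUT4 vesicles, had window means of 9.58, 8.80, 8.79 and 9.78, so it fell early and rose late, ending 0.19 from its first window (SE 0.12, adjusted p = 0.22, limma), and its late rise was 0.99 (SE 0.12, adjusted p = 5e-06, limma). RAB4A, a small GTPase of recycling, rose by 0.34 (SE 0.12, adjusted p = 0.037, limma), and RAB8A, of vesicle delivery, gave -0.40 (SE 0.10, adjusted p = 0.0039, limma). The transporter itself, SLC2A4, was above background on 8 of the 16 arrays, with window means of 6.04, 6.00, 6.15 and 6.19. LNPEP, the aminopeptidase that travels with it, TBC1D1 and RAB14 were above background on 0 arrays.

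**Figure D5:**
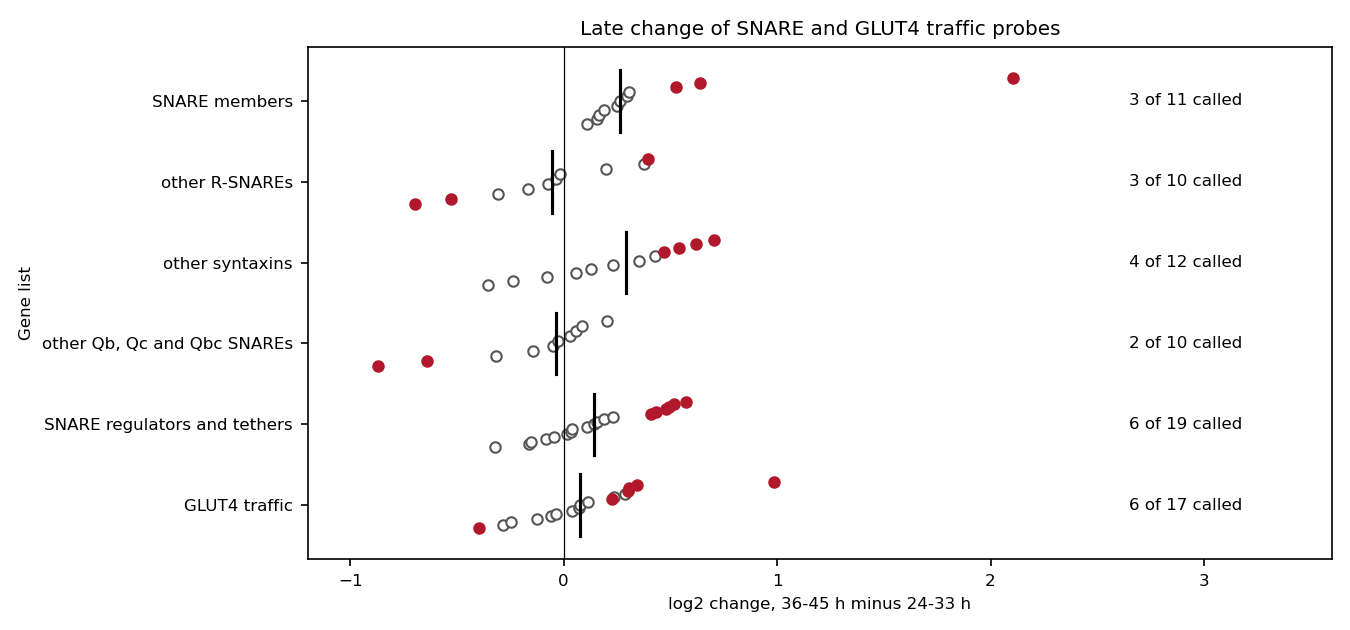
Log2 change from 24 to 33 hours to 36 to 45 hours for the SNARE probes (top) and for the tested probes of the 5 lists (1 symbol per probe, spread upward in order of size for legibility, filled where the adjusted p from limma was under 0.05, black bar at the list median). The members had a median of 0.26 with 3 of 11 called, and VAMP5 at 2.11 lay beyond every probe of the lists.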

How the data were processed

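The authors deposited bead intensity values on a linear scale, before normalization, and a detection p-value for every row and array. The study's methods state quantile normalization. Summary software and background correction are not given in the sources used here. Here the negative control level was inferred from detection p on the 19092 single-probe rows, normexp correction used an offset of 16, and quantile normalization and the log2 transform followed (R 4.3.3, limma 3.58.1, figures with matplotlib 3.10.9). A probe entered the tests if its detection p was under 0.05 on 3 arrays or more. Limma fitted a natural cubic spline (3 degrees of freedom) and, separately, 4 windows, each with an intensity trend, 12 residual degrees of freedom and Benjamini-Hochberg adjustment over 11957 probes. Both fits were tested on simulated data with independent noise and a shift planted in the last window. That simulation held no drift within a window and no dependence between arrays, so it cannot show errors that come from these. A ratio to an undetected value is a bound, taken against the higher of its own intensity and the lowest one detected on the same array.

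Symbols are those of the file, or their current form (STX5A and SEC22L3 there). No build is named for the array, so coordinates and gene order come from RefSeq (GRCh38.p14), matched by symbol for VAMP8 and VAMP5. Members, lists and tests were chosen with earlier results of these data known. Named were all members, up to 3 called probes per list with the largest late change, and the 5 probes most like VAMP8; others were chosen after their values were seen. Alternatives changed the background correction, offset, scaling, filter, curve, variance trend, arrays fitted and fold threshold, and left out each array. The number of per-sample columns not used was 0.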

Additional observations from a re-analysis of the deposited data

Results flagged for a closer look

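Within the windows of 4 arrays, 4 of the 44 pairs of SNARE probe and window had 1 array set apart from the other 3 by more of the range than the 95% limit of Dixon's test allows, and chance alone gives about 1 in 20. VAMP3 (ILMN_19403) read 10.73 at 0 hours where the next 3 arrays read 10.89 to 10.92. VAMP5 (ILMN_20179) read 7.45 at 15 hours against 7.34 to 7.36 on the other arrays of that window, and 9.25 at 36 hours against 9.73 to 9.75 later. SNAP23 (ILMN_679) read 7.18 at 30 hours against 7.32 to 7.34. The VAMP5 value at 36 hours is the first after its late step and lies above every array before it.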

How the results depend on the processing

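The late count of 3 members was 3 under every alternative except a fit of the 8 compared arrays alone, which gave 4 with STX8. The late change of VAMP8 ranged from 0.43 to 0.59, of VAMP5 from 1.44 to 2.23 and of SNAP23 ILMN_679 from 0.34 to 0.74, all still called. Of 12 called window changes, 7 held under every alternative that gave a value, among them the early drop of SNAP23 ILMN_29211, which was not tested where detection on all 16 arrays was required (2 early calls, not 3). The VAMP8 change from 0 to 9 to 12 to 21 hours turned from -0.18 to 0.0131 under median scaling and was also lost without the intensity trend. Median scaling moved the higher and lower calls over all probes from 1808 and 1722 to 3013 and 886 (12 to 21 against 0 to 9 hours), from 2310 and 2234 to 1742 and 2759 (late), and from 1932 and 1797 to 3206 and 841 (ends of the series).

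The 9 time-dependent members became 3 with a straight line and 3 with a step between 21 and 24 hours as a block, and 5 to 9 when single arrays were left out, with 5 without the 39 or the 42 hour array. The calls of VAMP4 ILMN_139375, SNAP23 ILMN_29211, STX7 and VTI1B were lost under 18 of 26, 16 of 25, 13 of 26 and 5 of 26 alternatives. Of the 6 members higher at 36 to 45 than at 0 to 9 hours, 3 remained called with only those 8 arrays. When the change from 12 to 21 to 24 to 33 hours was left out, 2 remained. Over all tested probes 3729 were called in either direction, and these 2 alternatives called 2474 and 1617. Median scaling gave 9, adding VAMP2, VAMP3 and STX7. Without background correction 2 members, not 4, were 1.7-fold from 0 hours, and 2184, not 5227, of all probes. A straight line called 1950 of all probes, not 6535, whereas the step between 21 and 24 hours as a block still called 5568. The causes were not tested. No chip is named, so a chip as a block was not run. A step between 21 and 24 hours was used in its place. No paired analysis was possible because each time point has 1 array. Dim probes (VAMP2, VAMP4, SNAP23, and VAMP5 at 12 to 33 hours) lie close to background, which limits their folds.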

Other observations

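The tether that works with VAMP8, STX7, STX8 and VTI1B at late endosomes, HOPS, is built of VPS11, VPS16, VPS18, VPS33A, VPS39 and VPS41, and 4 of these 6 genes had a probe that was higher at the late step, where 19.3% of all tested probes were. A gene was counted if any of its tested probes was higher, whereas the 19.3% is a share of probes, so the figures are not alike. These genes were grouped after their values had been seen, so no test is given for the group. From 24 to 33 to 36 to 45 hours VPS39 rose by 0.57, VPS11 by 0.49 and VPS41 by 0.48 (adjusted p = 0.00032 for VPS41, limma). VPS16 rose by 0.43 on probe ILMN_6531 (adjusted p = 0.00062, limma) and was at -0.08 on ILMN_11344 (adjusted p = 0.74, limma). VPS33A (-0.04, adjusted p = 0.81, limma) and VPS18 (0.23, adjusted p = 0.22, limma) did not pass. Both of these had fallen early, VPS18 by 0.88 and VPS33A by 0.42 from 0 to 9 to 12 to 21 hours (adjusted p = 0.00019 and 0.01, limma).

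The adaptors that load NSF, the ATPase that takes spent SNARE bundles apart, were read in the same way. NAPA, alpha-SNAP, fell by 0.63 from the first to the second window (adjusted p = 0.031, limma) and NAPG, gamma-SNAP, fell by 0.64 (adjusted p = 0.00024, limma). NAPB, beta-SNAP, had an early change of 0.14 (adjusted p = 0.44, limma) and rose by 0.41 at the late step (adjusted p = 0.016, limma). Between the ends of the series NAPA fell by 0.79 (adjusted p = 0.008, limma) and NAPB rose by 0.47 (adjusted p = 0.0093, limma).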
